A study of Homo sapiens with 12 samples.

Results

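Complement is a cascade of plasma proteins that marks cells and microbes for removal. In the classical pathway the proteases C1r and C1s, bound to C1q, cleave C4 and C2 to form an enzyme that cleaves C3, whereas in the alternative pathway factor D cleaves factor B on deposited C3b and so amplifies C3 cleavage. Host cells are shielded by membrane proteins: CD46 is the cofactor for cleavage of C3b and C4b, CD55 speeds the decay of the C3-cleaving enzymes, and CD59 blocks assembly of the membrane attack complex. Carcinoma cells commonly carry these shields, and several component genes, among them C3 and CFB, are known targets of NF-κB in other cells. The genes described here are 9 of the 62696 in the count tables, chosen by name: the components C3, CFB (factor B), CFD (factor D), C1R, C1S and C4B, and the membrane regulators CD46, CD55 and CD59. All 9 were found in the tables.

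They were measured by poly-A RNA-seq in SKBR3 and in MDA-MB-453, 2 breast cancer lines of the HER2 class, each as 3 untreated and 3 TWEAK-treated replicates, which the methods call biological. TWEAK is the ligand of Fn14 (TNFRSF12A), a receptor that activates NF-κB. Cells of the TWEAK groups were seeded for 24 h in DMEM with 10% FBS, starved for 8 h in Opti-MEM, then given TWEAK at 10 ng/ml for 48 h with a renewal after 24 h. The untreated libraries carry the same protocol text in the labels, which does not say what they received in place of TWEAK, and each line is 1 established line, so its replicates are cultures of the same cells.

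Library totals ranged from 24773003 to 35208304 counts, and 3 counts, used here as the limit of detection, corresponded to between 0.082 and 0.13 CPM, counts scaled to the library size by TMM. The share of mitochondrial counts was 4.02% to 7.95%. The list of breast epithelial and HER2 genes (ERBB2, EPCAM, keratins and others, 8 genes) summed to 20992 to 22903 CPM in untreated and 23001 to 26816 CPM in TWEAK-treated SKBR3, and to 3556 to 3663 and 3571 to 3840 CPM in MDA-MB-453, and each of the 8 had counts in every group. CDH1 was the low one in SKBR3, with 1 to 7 counts a library against 1158 to 1772 in MDA-MB-453. With TWEAK, KRT7 was called higher in SKBR3 and MDA-MB-453 (log2 fold change 0.46 and 0.25, adjusted p = 0.0114 and 0.0101 in edgeR) and KRT19 in SKBR3 (0.32, adjusted p = 0.0608). They were 2 of 7 listed genes tested in SKBR3 and 1 of 8 in MDA-MB-453, and 0 were called lower. With all libraries, 6.60% of all genes tested were called higher in SKBR3 and 1.29% in MDA-MB-453. In SKBR3 every TWEAK library lay below every untreated one for EPCAM (-0.16, adjusted p = 0.173 in edgeR, not called). In MDA-MB-453 the groups also did not overlap for ERBB2 and GRB7 (both -0.06) and KRT8 (0.10), which were not called. Groups that did not overlap were found for 26.5% of all genes tested in SKBR3 and for 15.1% in MDA-MB-453. KRT19 lost its SKBR3 call without untreated replicate 1 or 2 (adjusted p = 0.227 and 0.247 in edgeR), with the replicate number as a block (0.105) and at a threshold of 0.05. KRT7 lost its MDA-MB-453 call without untreated replicate 2 or 3 (0.130 and 0.135) and with all 12 libraries in one fit (0.332). The part of these genes in the results was not tested. TWEAK raised NFKB2, the p52 precursor, in SKBR3 (log2 fold change 1.79) and MDA-MB-453 (1.67), and RELB, its partner, by 1.44 and 2.75 on the same scale, all with adjusted p of at most 1.73e-05 in edgeR. In each line TWEAK replicate 2 lay farthest from its group: counts of this library against the other TWEAK libraries gave a chi-square of 18.7 and 21.1 per degree of freedom in SKBR3 (1.70 to 5.20 for the remaining replicate pairs) and of 9.20 and 4.85 in MDA-MB-453 (1.99 to 2.67). Where a call of a named complement gene changes without it, both values are given, here or in the closing section. Without it, 17.4% of all genes tested were called in SKBR3 (9.93% higher) and 13.8% in MDA-MB-453 (6.59% higher).

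The levels of the 9 genes covered a wide range. Per kilobase of exon, untreated SKBR3 held 33.8 ± 1.60 CPM of CD46, 21.8 ± 0.550 of CD59 and 5.81 ± 0.325 of CD55 (SD, n = 3), and the 3 regulators stood above all 6 components. The components followed in the order CFD (3.04 ± 0.522), C1R (0.543 ± 0.0755), C1S (0.149 ± 0.0407), C3 (0.0578 ± 0.0125), CFB (0.0149 ± 0.00789) and C4B (0.00359 ± 0.00313), and no 2 neighbours in this order overlapped between libraries. The order was the same in SKBR3 with TWEAK. CFB and C4B, however, were at or under 3 counts in every SKBR3 library, so their relative position rests on single reads.

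In untreated MDA-MB-453, CD46 was again the highest at 37.4 ± 0.799 CPM per kilobase, ahead of CD59 (6.47 ± 0.0633), CD55 (1.55 ± 0.108) and CFD (1.35 ± 0.120). C1S (0.133 ± 0.0395) and C1R (0.0992 ± 0.00721) overlapped. C4B (0.0325 ± 0.00613) lay above C3 (0.0116 ± 0.00356) in the untreated libraries and overlapped with it in the TWEAK libraries, and CFB (0.00233 ± 0.00403) was last. The summed regulators exceeded the summed components by 11.5 to 19.3 times in the SKBR3 libraries and by 26.1 to 33.1 times in those of MDA-MB-453, on the scale of CPM per kilobase. This scale divides by all annotated exonic bases of a gene, 15505 for CD46, 10557 for CD59, 10254 for CD55 and 1818 for CFD. The ranks and ratios depend on these lengths, and lengths of single transcripts were not tried. CFD made up most of the component sum in both lines.

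**Figure D1:**
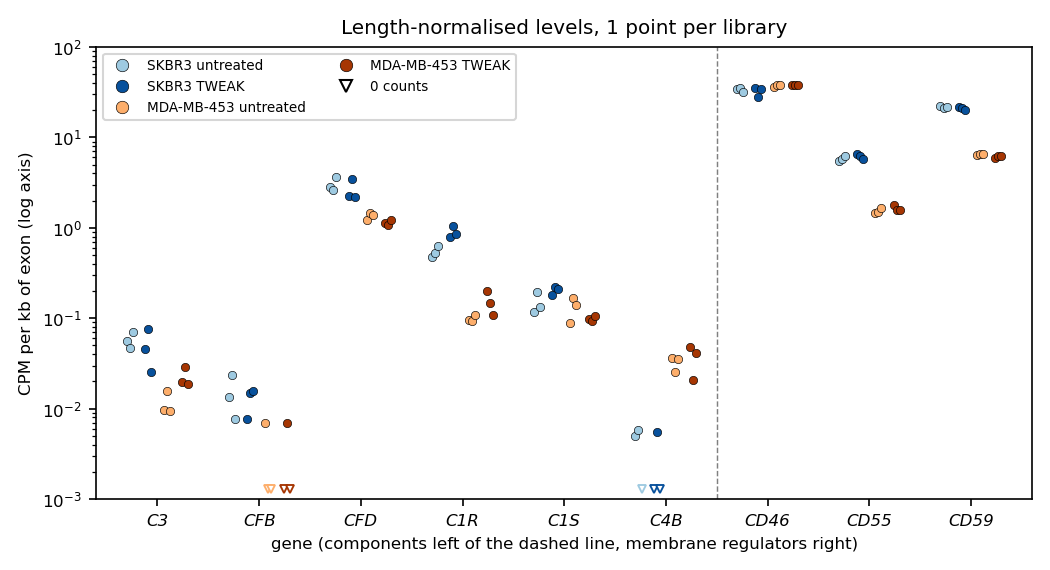
Length-normalised levels of the 9 complement genes (CPM per kilobase of exon, log axis), 1 point per library in 4 groups, with open triangles for libraries at 0 counts. CD46, CD59 and CD55 lie right of the dashed line; untreated SKBR3 means run from 33.8 for CD46 to 0.00359 for C4B.

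C1R, in SKBR3, was the 1 member called with TWEAK when all libraries were used; without TWEAK replicate 2, CFD was called as well. C1R encodes the protease that activates C1s within the C1 complex, and the gene (ENSG00000159403) lies at chr12:7080214-7092540 on the minus strand of hg38. Its level was 2.77, 3.06 and 3.63 CPM in the 3 untreated SKBR3 replicates and 4.61, 6.05 and 4.92 CPM in the 3 TWEAK replicates. Each TWEAK library thus lay above each untreated library. The means were 3.15 ± 0.438 and 5.19 ± 0.759 CPM (SD, n = 3), from 74 to 88 counts in the untreated and 114 to 151 in the TWEAK libraries. The log2 fold change was 0.72 (SE 0.155, 95% interval 0.38 to 1.06) with an adjusted p of 0.0151 in edgeR's quasi-likelihood test. In bulk RNA, more cells that express C1R and more C1R RNA per cell cannot be told apart. C1R was called in each of the 15 alternatives run in SKBR3, with log2 fold changes between 0.60 and 0.84 and adjusted p between 0.00011 and 0.0857. It was the only call among 7 members tested in SKBR3, where 10.4% of all 15661 genes tested were called, 6.60% higher and 3.82% lower. Groups that did not overlap were found for 26.5% of the genes tested in SKBR3.

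The gene next to C1R, C1RL, encodes a C1r-like protease and shares 672 exonic bases with C1R on the same strand, 11.6% of the exonic bases of C1R. C1RL held 1.90, 2.48 and 2.27 CPM in untreated SKBR3 and 3.31, 3.21 and 3.50 CPM with TWEAK. Its groups did not overlap either, and its log2 fold change was 0.59 (SE 0.151, adjusted p = 0.0378 in edgeR). The adjusted p over its alternatives ran from 0.0149 to 0.178, and the call was lost without untreated replicate 1 (0.49, adjusted p = 0.178) and without TWEAK replicate 3 (0.56, adjusted p = 0.103). Whether shared exons let reads of 1 gene count for the other was not tested.

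The windows before the starts of C1R and C1RL, the pair of neighbours that rose together, are shown with that of CFB, a component at the limit of detection. They hold the 250 bases upstream of a transcript start in RefSeq on GRCh38.p14, at chr12:7092446-7092695 (minus strand), chr12:7109215-7109464 (minus strand) and chr6:31945845-31946094 (plus strand), and C1RL and CFB were chosen after their values were seen. The outer bounds of these genes in GENCODE reach beyond the RefSeq starts, so the CFB window lies within the GENCODE gene and the C1R and C1RL windows overlap theirs in part. Capitals mark matches to 4 motifs searched on both strands: κB (GGG and CC with any 5 bases between them), TTNNGNAA (C/EBP), TTCNNNGAA (STAT) and TGANTCA (AP-1).
C1R: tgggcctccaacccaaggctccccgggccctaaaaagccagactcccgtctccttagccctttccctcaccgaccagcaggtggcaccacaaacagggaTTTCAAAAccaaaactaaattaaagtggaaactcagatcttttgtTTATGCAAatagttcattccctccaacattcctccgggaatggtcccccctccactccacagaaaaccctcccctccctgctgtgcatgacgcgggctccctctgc
C1RL: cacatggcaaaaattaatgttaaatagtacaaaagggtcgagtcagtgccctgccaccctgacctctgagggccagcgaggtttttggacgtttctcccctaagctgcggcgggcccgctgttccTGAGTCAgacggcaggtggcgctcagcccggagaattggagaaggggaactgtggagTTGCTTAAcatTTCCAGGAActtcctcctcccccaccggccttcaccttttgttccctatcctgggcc
CFB: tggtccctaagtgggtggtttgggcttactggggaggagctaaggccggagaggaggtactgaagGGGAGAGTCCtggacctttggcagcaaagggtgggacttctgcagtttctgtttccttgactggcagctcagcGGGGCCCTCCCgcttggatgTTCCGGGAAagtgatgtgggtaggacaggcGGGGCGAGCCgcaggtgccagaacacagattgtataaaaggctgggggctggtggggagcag

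In the full window of 300 bases, which adds the first 50 bases of the transcript, C1R held 2 C/EBP matches, whose first bases lay at positions -151 and -106 from the start, and κB letters from position 24 on both strands, outside the stretch printed. The table holds another C1R start, whose window, with 250 bases upstream at chr12:7091894-7092143, held a κB match from position -185, a C/EBP match from -167 and a STAT match from -86. C1RL held an AP-1 match from position -125, a C/EBP match from -68 and a STAT match from -57, and no κB letters. CFB held 5 κB matches, some overlapping each other, and a STAT match from position -92. Of all 35116 windows of this length in the table, 58.7% held the κB letters, 36.8% those of C/EBP, 7.66% those of STAT and 7.71% those of AP-1. A match describes letters in a window and not a bound site. Promoter windows were found for 6 of the 9 members, not for C3, C1S and C4B.

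Among the other members tested in SKBR3, none passed the threshold. C1S, whose protease cleaves C4 and C2, lies at chr12:6988259-7071032 and held 0.970, 1.61 and 1.11 CPM untreated and 1.50, 1.84 and 1.75 CPM with TWEAK. The groups overlapped, because untreated replicate 2 exceeded TWEAK replicate 1, and the log2 fold change was 0.47 (95% interval -0.03 to 0.96, adjusted p = 0.286 in edgeR). C3, the component on which the pathways meet (chr19:6677704-6730562), held 18, 13 and 20 counts in untreated and 13, 22 and 7 counts in TWEAK libraries, 0.646, 0.538 and 0.824 against 0.525, 0.881 and 0.292 CPM. The highest and the lowest SKBR3 library for C3 were both TWEAK libraries. Its log2 fold change of -0.24 had a 95% interval of -1.06 to 0.59 (adjusted p = 0.787 in edgeR). It was -0.70 without TWEAK replicate 2, which holds the highest C3 count, and 0.07 without TWEAK replicate 3, and neither was called (adjusted p = 0.289 and 0.940). C3 shares 11.7% of its exonic bases with a lncRNA (ENSG00000276980) on the same strand.

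CFD encodes the protease that cleaves factor B and lies at chr19:859453-867884. It held 5.17, 4.80 and 6.59 CPM untreated and 4.08, 6.25 and 3.96 CPM with TWEAK in SKBR3. TWEAK replicate 2 lay within the untreated range and the other TWEAK replicates below it. The log2 fold change was -0.21 (95% interval -0.63 to 0.21, adjusted p = 0.597 in edgeR) with all libraries and -0.46 (adjusted p = 0.0375) without TWEAK replicate 2, the library that stands apart, so that 2 members were then called. CFD shares 14.0% of its exonic bases with MED16 on the opposite strand, and the strand setting of the counting is not stated.

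CFB and C4B were not tested with TWEAK in either line, as their counts did not pass edgeR's filter on low counts. CFB (chr6:31945650-31952086) had 2, 3 and 1 counts in untreated and 1, 2 and 2 in TWEAK-treated SKBR3. In MDA-MB-453 it had 1 count in untreated replicate 1, 1 count in TWEAK replicate 2 and 0 in the remaining libraries. CFB counts were thus at the limit of detection in all 12 libraries. CFB shares 2249 exonic bases, 42.3% of its exonic bases, with ENSG00000244255 on the same strand. How reads in shared exons were counted is not given in the sources used here, so the count may miss CFB reads, and this was not tested.

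The membrane regulators differed little with TWEAK in SKBR3. CD46 (chr1:207752037-207795513) held 535, 543 and 496 CPM untreated and 542, 436 and 535 CPM with TWEAK, a log2 fold change of -0.06 (95% interval -0.24 to 0.12, adjusted p = 0.732 in edgeR). TWEAK replicate 2 was the lowest of these libraries, and without it the log2 fold change was 0.03, also not called. CD55 (chr1:207321519-207386804) held 56.5, 59.1 and 63.1 CPM untreated and 67.0, 63.1 and 58.4 CPM with TWEAK (log2 fold change 0.07, 95% interval -0.09 to 0.24, adjusted p = 0.650 in edgeR). CD59 (chr11:33703010-33736479) held 237, 226 and 228 CPM untreated and 229, 223 and 213 CPM with TWEAK (log2 fold change -0.06, 95% interval -0.19 to 0.06, adjusted p = 0.613 in edgeR). The groups overlapped for all 3 regulators, and the bounds of their intervals lay between -0.24 and 0.24. The median log2 fold change was 0.13 over the 4 components tested, -0.06 over the 3 regulators and -0.0074 over all genes tested.

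**Figure D2:**
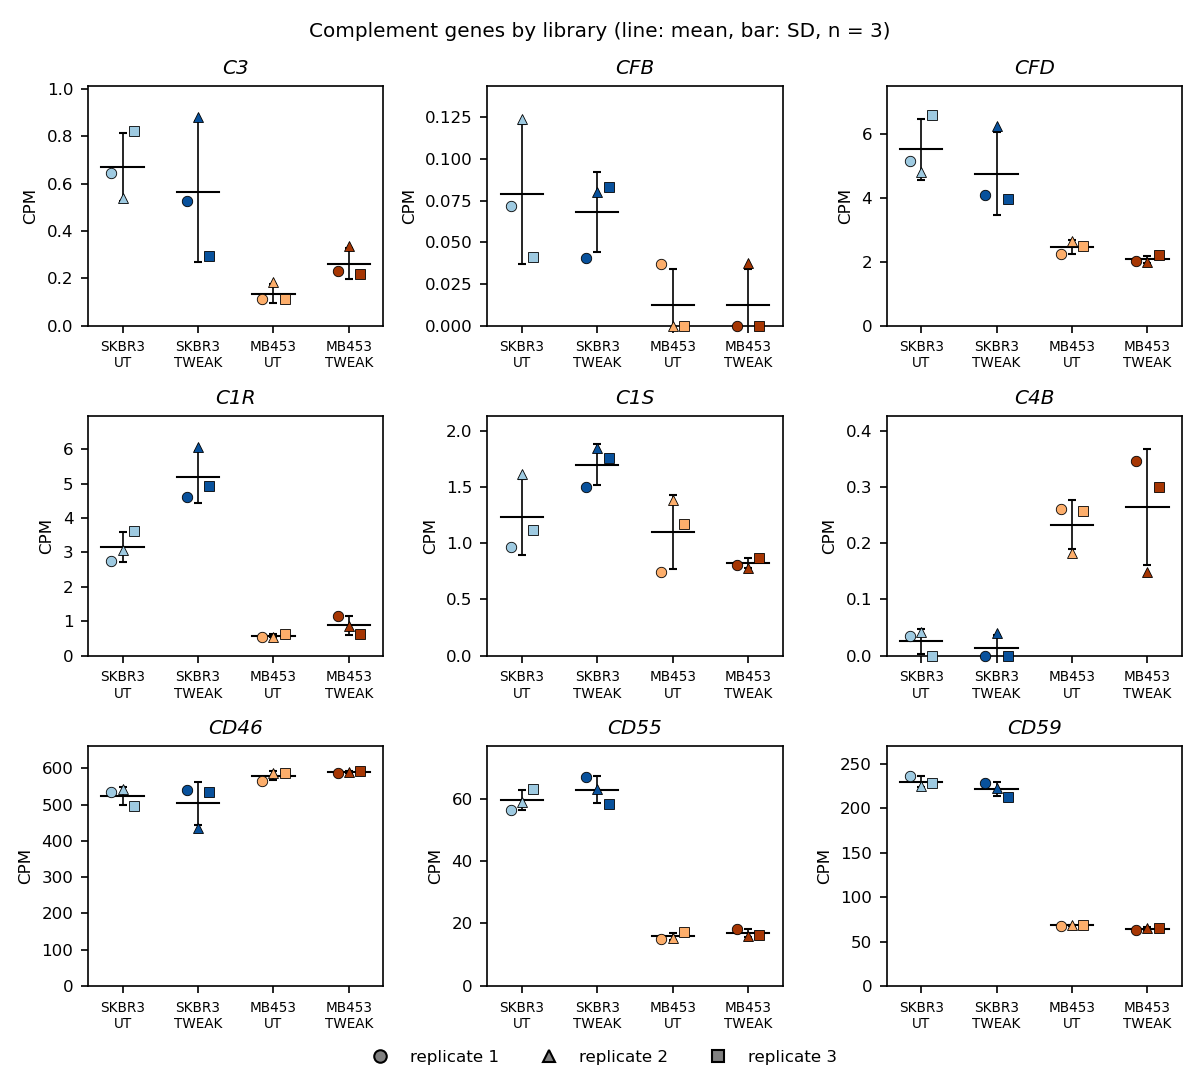
CPM of each member in the 12 libraries, with 1 panel per gene, linear axes from 0, points for replicates 1 to 3, lines for the mean and bars for the SD (n = 3); UT is untreated and MB453 is MDA-MB-453. The 3 SKBR3 TWEAK libraries lie above the 3 untreated ones for C1R, from 4.61 against at most 3.63 CPM.

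In MDA-MB-453 none of the 6 members tested was called by edgeR, against 1.49% of all 14929 genes tested (1.29% higher, 0.208% lower). Without TWEAK replicate 2 the members called were again 0, against 13.8% of all genes tested. With all libraries, 0 of the 6 had an unadjusted p under 0.05, and DESeq2 called 0 as well. C1R held 0.557, 0.547 and 0.624 CPM untreated and 1.15, 0.858 and 0.627 CPM with TWEAK. The groups touched but did not overlap, since TWEAK replicate 3 and untreated replicate 3 were nearly equal. The log2 fold change was 0.56 (SE 0.282, 95% interval -0.04 to 1.17, adjusted p = 0.507 in edgeR), from 15 to 17 counts untreated and 23 to 30 with TWEAK. The C1R change in MDA-MB-453 less the SKBR3 change was -0.16 (95% interval -0.88 to 0.55, adjusted p = 0.946 for the interaction in edgeR), so a difference between the lines was not shown, although C1R passed the threshold in SKBR3 only.

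C1S in MDA-MB-453 held 0.742, 1.38 and 1.17 CPM untreated and 0.807, 0.783 and 0.872 CPM with TWEAK. The TWEAK libraries lay within the untreated range, and the log2 fold change was -0.42 (95% interval -0.95 to 0.12, adjusted p = 0.584 in edgeR). The C1S change in MDA-MB-453 less the SKBR3 change was -0.89 (95% interval -1.61 to -0.16), with an unadjusted p of 0.0196 and an adjusted p of 0.285 in edgeR. It was the 1 member of 7 with an unadjusted p under 0.05 for the interaction. None passed the adjusted threshold, DESeq2 called 0 of them, and 3.37% of all genes tested were called.

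C3 in MDA-MB-453 had 3, 5 and 3 counts untreated and 6, 9 and 8 counts with TWEAK, which is 0.111, 0.182 and 0.110 against 0.231, 0.336 and 0.218 CPM. All 3 TWEAK libraries lay above the untreated ones, but the counts did not pass the filter. Fitted with no filter, the log2 fold change was 0.92 (SE 0.565, adjusted p = 0.732 in edgeR). The ratio of the summed counts, 23 against 11 and scaled by library size, was 1.91 with a 95% counting interval of 0.893 to 4.33. In the fit of all 12 libraries, the C3 change in MDA-MB-453 less the SKBR3 change was 1.14 (95% interval -0.20 to 2.48, adjusted p = 0.570 in edgeR).

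CFD in MDA-MB-453 held 2.23, 2.66 and 2.49 CPM untreated and 2.04, 1.98 and 2.21 CPM with TWEAK, and CD59 held 67.6, 68.9 and 68.5 CPM untreated and 63.3, 65.5 and 65.3 CPM with TWEAK. For both genes the TWEAK libraries lay below the untreated ones. The log2 fold changes were -0.24 (95% interval -0.55 to 0.07, adjusted p = 0.585 in edgeR) for CFD and -0.08 (-0.16 to 0.01, adjusted p = 0.504) for CD59, and neither was called. Groups that did not overlap were found for 15.1% of all genes tested in this line. CD46 held 566, 589 and 586 CPM untreated and 587, 591 and 592 CPM with TWEAK (log2 fold change 0.02, adjusted p = 0.831 in edgeR), and CD55 held 15.1, 15.4 and 17.1 against 18.3, 16.0 and 16.3 CPM (0.08, adjusted p = 0.703). The groups of CD46 and of CD55 overlapped. The median log2 fold change was -0.24 over the 3 components tested, 0.02 over the 3 regulators and 0.0016 over all genes tested.

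**Figure D3:**
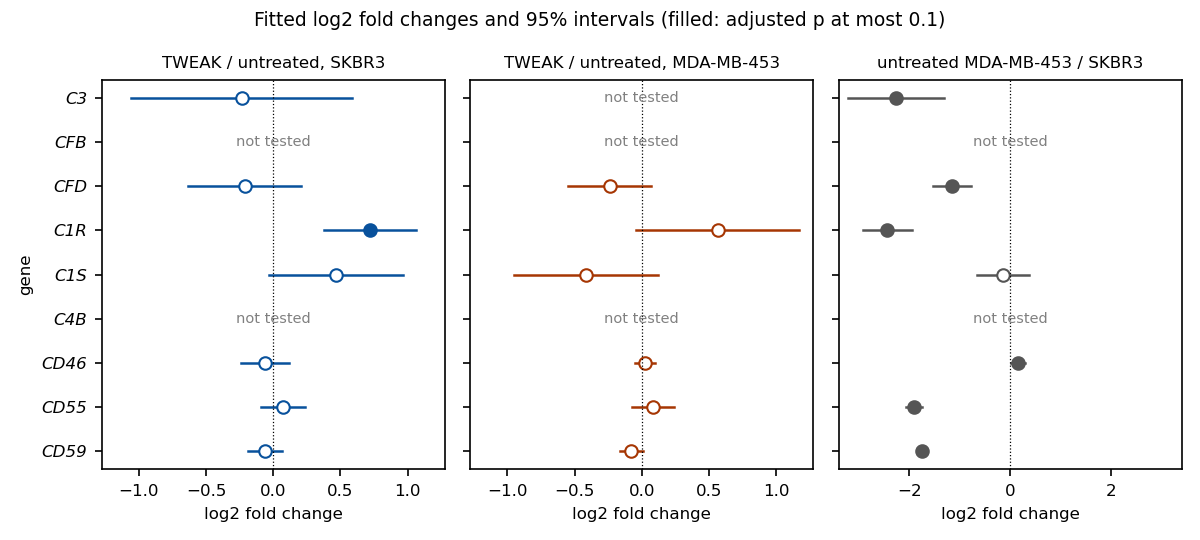
Fitted log2 fold changes of the members with 95% intervals in 3 comparisons: TWEAK over untreated in each line, and untreated MDA-MB-453 over untreated SKBR3 (on a wider axis). Filled points have an adjusted p of at most 0.1; C1R in SKBR3 (0.72) is the 1 filled point of the TWEAK panels.

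Before TWEAK the lines differed in most members, as they did in most genes: of 17201 genes tested, 84.2% were called between untreated MDA-MB-453 and untreated SKBR3 (40.7% higher and 43.5% lower in MDA-MB-453), so these counts say little about complement genes in particular. Of 7 members tested, 5 were lower in MDA-MB-453. C1R, CD55, CD59 and CFD passed the filter on low counts in each line, whereas C3 passed it in SKBR3 alone (18, 13 and 20 counts untreated, against 3, 5 and 3 in MDA-MB-453), so that its call describes a gene that was tested because it is higher in SKBR3. The log2 differences (MDA-MB-453 minus SKBR3) were -2.44 for C1R (SE 0.228), -2.27 for C3 (SE 0.449), -1.91 for CD55 (SE 0.0748), -1.75 for CD59 (SE 0.0470) and -1.16 for CFD (SE 0.176), with adjusted p of at most 0.000169 in edgeR. For these 5 genes no MDA-MB-453 library reached any SKBR3 library of the untreated groups, as was the case in either direction for 84.3% of all genes tested. C1S did not pass the threshold (-0.15, 95% interval -0.66 to 0.37, adjusted p = 0.583 in edgeR).

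CD46 differed from the other regulators in this comparison. It was slightly higher in MDA-MB-453 (580 ± 12.4 against 525 ± 24.8 CPM, SD, n = 3), with a log2 difference of 0.15 (SE 0.0657, adjusted p = 0.0501 in edgeR). It was -0.03, on the other side of 0, after a correction for GC content and gene length, and the call was also lost with the replicate number as a block (0.06), with at least 10 counts in every library (0.12), at a threshold of 0.05 and without 1 of 3 untreated libraries (SKBR3 replicate 3, MDA-MB-453 replicates 2 and 3; 0.11 to 0.14). CD55 was at 15.9 ± 1.11 CPM in MDA-MB-453 against 59.6 ± 3.34 CPM in SKBR3, and CD59 at 68.3 ± 0.669 against 230.2 ± 5.81 CPM.

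C4B, 1 of 2 near-identical genes for C4, was higher in MDA-MB-453, whereas C1R, C3 and CFD were lower there. SKBR3 libraries had 1, 1 and 0 counts untreated and 0, 1 and 0 with TWEAK, and MDA-MB-453 libraries had 7, 5 and 7 untreated and 9, 4 and 11 with TWEAK. No SKBR3 library reached any MDA-MB-453 library. Fitted with no filter, the log2 difference between the untreated lines was 2.95 (SE 0.857, adjusted p = 0.00177 in edgeR), a value that depends on the prior count because SKBR3 is at the limit of detection. The transcripts compared for C4A and C4B, 5427 bases each, were 99.8% identical with 13 mismatches, and their longest identical run was 2769 bases. Reads from C4A and C4B can therefore not be told apart over most of their length, and the split between C4B and C4A (6 to 10 counts in untreated MDA-MB-453, 0 to 5 in untreated SKBR3) is uncertain.

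The rest of the complement system was followed in a list of 52 genes. Of these, 29 in SKBR3 and 35 in MDA-MB-453 were at or under 3 counts in every library, and 11 and 9 could be tested. In SKBR3, 4 of the 11 were higher and 0 lower, and in MDA-MB-453 2 of the 9 were higher and 0 lower, beside 6.60% and 1.29% of all genes tested that were higher. Without TWEAK replicate 2 the listed genes called higher were 5 in SKBR3 and 3 in MDA-MB-453, beside 9.93% and 6.59%. The added genes were CLU in SKBR3 and C1QBP, a binding protein of C1q named after its values were seen, in MDA-MB-453 (log2 fold change 0.09, adjusted p = 0.462 with all libraries and 0.12, adjusted p = 0.0355 without that library, in edgeR). Of the genes called in MDA-MB-453, ITGAM passed the filter on low counts through its TWEAK libraries alone, so it had to differ, and the counts are given as a description. No gene of C1q passed the filter in either line. Of the 4 other convertase genes, C5 and CFP were tested in MDA-MB-453 alone and not called (log2 fold change -0.11 and -0.19).

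The largest change on the list was in ITGAM, the alpha chain of complement receptor 3, which binds a cleavage product of C3b. It held 0.718, 0.579 and 1.07 CPM in untreated SKBR3 and 23.8, 22.2 and 25.2 CPM with TWEAK (log2 fold change 4.90, SE 0.152, adjusted p = 2.22e-08 in edgeR). In MDA-MB-453 it went from 3, 0 and 3 counts to 35, 41 and 43 counts (1.35, 1.53 and 1.17 CPM), at least 12.2-fold higher than a floor of 3 counts per untreated library. Its groups stood far apart in both lines. The beta chain, ITGB2, held 3.38, 2.90 and 3.67 CPM untreated and 4.44, 5.73 and 5.34 CPM with TWEAK in SKBR3 (log2 fold change 0.64, SE 0.145, adjusted p = 0.0214 in edgeR), and the call was lost without untreated replicate 2 (adjusted p = 0.112). In MDA-MB-453 ITGB2 was not called (log2 fold change -0.28, adjusted p = 0.731), and the interaction had an adjusted p of 0.157 (0.0811 without MDA-MB-453 TWEAK replicate 2). Both chains are leukocyte genes as a rule. The 6 leukocyte and macrophage markers followed (PTPRC, CD68, CD14, LYZ, CD3E and CSF1R) summed to 13.1 to 15.5 CPM in untreated and 15.8 to 15.9 CPM in TWEAK-treated SKBR3, and to 0.182 to 0.557 and 0.164 to 0.373 CPM in MDA-MB-453. The SKBR3 sum was nearly all CSF1R (12.4 to 15.3 CPM), while PTPRC, CD68, CD3E and LYZ had at most 7 counts and CD14 8 to 15 counts a library. Of the 6 markers, 2 were tested, in SKBR3, and neither was called, beside 10.4% of all genes tested there. CD68 was at 0 in all TWEAK-treated MDA-MB-453 libraries, but it shares 81.6% of its exonic bases with a lncRNA on the same strand.

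Markers of other cell types were followed beside these changes. Of 4 endothelial markers, 2 were tested in SKBR3 and 1 was called, beside 10.4% of all genes tested there (6.60% higher). The called gene was CDH5, which encodes VE-cadherin. It held 53, 38 and 42 counts untreated and 88, 100 and 121 counts with TWEAK (log2 fold change 1.26, SE 0.175, adjusted p = 0.000855 in edgeR). VWF was tested and not called, PECAM1 had at most 2 counts a library, and KDR had at most 2 counts and was at 0 in all TWEAK libraries. The endothelial list summed to 3.93 to 5.13 CPM in untreated and 6.42 to 7.72 CPM in TWEAK-treated SKBR3, and to at most 0.559 CPM in MDA-MB-453. The 6 fibroblast markers summed to 18.03 to 20.98 and 17.6 to 18.7 CPM in untreated and treated SKBR3 and to 116 to 123 and 107 to 113 CPM in MDA-MB-453, where COL3A1, LUM and DCN were at 0, and LUM was at 0 in TWEAK-treated SKBR3. The 5 hepatocyte markers summed to at most 0.577 CPM in SKBR3 and 1.50 CPM in MDA-MB-453. The fibroblast sums are nearly all COL1A1, which was not called. In MDA-MB-453 every TWEAK library of COL1A1 lay below every untreated one (log2 fold change -0.12, adjusted p = 0.272 in edgeR). The same held there for ALB of the hepatocyte list (-0.28, adjusted p = 0.674 in edgeR, not called). Groups that did not overlap were found for 15.1% of all genes tested in that line. COL1A2 did not pass the filter on low counts, and in SKBR3 it held 2, 1 and 3 counts untreated and 10, 8 and 12 counts with TWEAK. No tested marker of these 2 lists was called with TWEAK, and the part of other cells in the complement results was not tested.

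C8G, the gamma chain of C8 in the membrane attack complex, held 0.575, 0.910 and 1.28 CPM in untreated SKBR3 and 2.02, 3.12 and 2.0 CPM with TWEAK, a log2 fold change of 1.38 (SE 0.290, adjusted p = 0.0130 in edgeR). The other genes of the terminal pathway did not pass the filter. In MDA-MB-453 C8G held 1.11, 1.31 and 1.10 CPM untreated and 1.08, 1.12 and 1.36 CPM with TWEAK, with a log2 fold change of 0.03 (95% interval -0.40 to 0.46). CLU (clusterin), a soluble inhibitor of the membrane attack complex, was called higher in MDA-MB-453, from 237, 224 and 226 to 264, 255 and 261 CPM (log2 fold change 0.18, SE 0.0373, adjusted p = 0.0275 in edgeR). It lost this call when untreated libraries 2 or 3, or TWEAK library 3, were left out (adjusted p of 0.257, 0.245 and 0.191). In SKBR3 CLU went from 454, 459 and 516 to 545, 618 and 527 CPM, and its log2 fold change of 0.24 had an adjusted p of 0.106 in edgeR, and of 0.0259 and 0.0784 when TWEAK libraries 2 and 3 were left out in turn, and 0.0813 when untreated library 3 was. The groups of CLU did not overlap in either line.

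**Figure D4:**
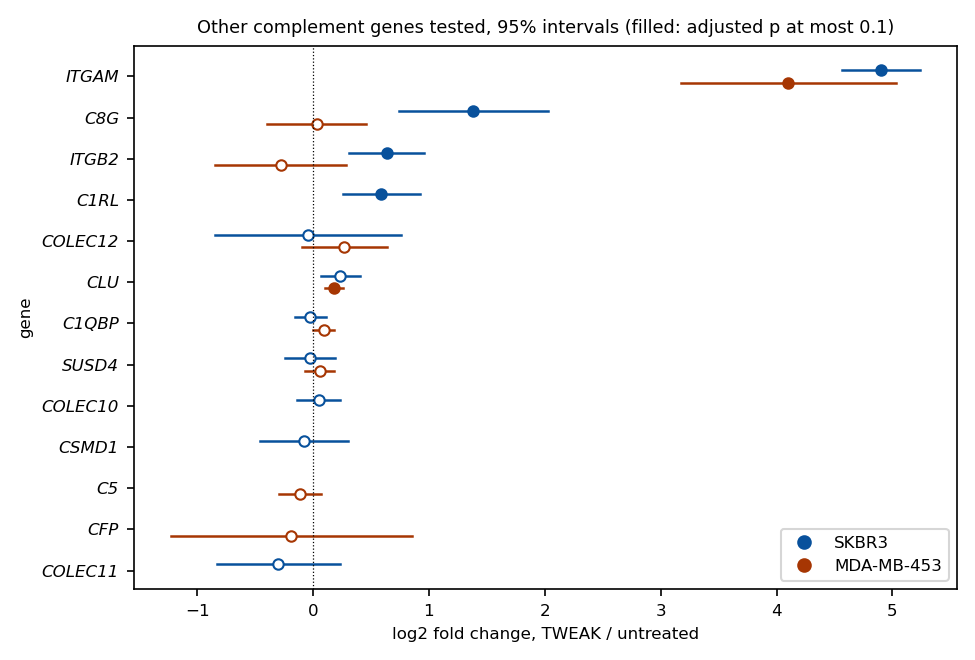
Log2 fold changes (TWEAK over untreated) with 95% intervals of the listed complement genes that could be tested in SKBR3 or in MDA-MB-453; filled points have an adjusted p of at most 0.1. ITGAM stands apart at 4.90 in SKBR3 and 4.10 in MDA-MB-453, the latter fitted against untreated libraries at the limit of detection, and no listed gene was called lower.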

How the data were processed

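Poly-A RNA-seq libraries of SKBR3 and MDA-MB-453 were grouped by the sample labels. Per the submitters' processing notes and the methods, the authors removed adaptors with Trimmomatic, mapped reads to hg38 with STAR, counted them per gene with featureCounts and ran DESeq2 at an FDR of 0.1; versions, strand setting and annotation release are not given in the sources used here, and the labels and the methods name different library kits. The deposited counts are whole numbers without normalisation. GENCODE release 44 holds 62625 of the 62696 identifiers (61918 in the same version) and lacks 71; gene symbols, positions, exon lengths and overlaps come from that release.

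Counts were tested per line on 6 libraries with edgeR 4.0.16 in R 4.3.3 (filterByExpr, TMM, two-sided quasi-likelihood test, Benjamini-Hochberg over all genes tested, threshold 0.1, prior count 0.125); interaction and untreated lines were tested in a fit of all 12 libraries with 4 group means. CPM use TMM factors over 12 libraries (0.932 to 1.05). Floors and counting intervals cover counting error only, and PCR copies were not removed here. An exact permutation test of 3 against 3 cannot go below 0.1. The fits were tested on simulated data.

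The members, the lists, the tests and the rule for naming genes (all members; listed genes called in a line; NFKB2, RELB and TNFRSF12A; the 3 genes most like C3) were chosen with earlier results of these data known. The comparison of protein sequences was not run; the C4A and C4B transcripts were compared in its place, a choice made after the files were seen. Alternatives were DESeq2 1.42.0 and its size factors, no filter, at least 10 counts in every library, a threshold of 0.05, the replicate number as a block, a correction for GC content and gene length, both together, other libraries in the fit, and each library left out.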

Additional observations from a re-analysis of the deposited data

Results flagged for a closer look

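In a test of the interaction, 3 named genes passed the threshold for a response to TWEAK that differed between the lines. Of all 17201 genes tested, 3.37% passed the threshold. RELB passed it under every alternative, whereas C8G and KRT19 did not. For C8G, the log2 fold change in MDA-MB-453 less the SKBR3 change was -1.36 (SE 0.365, adjusted p = 0.0656 in edgeR); 8 of 20 alternatives did not pass the threshold (an adjusted p of 0.05, and leaving out SKBR3 untreated replicate 1 or 2, any MDA-MB-453 untreated replicate, or MDA-MB-453 TWEAK replicate 1 or 2), with values from -1.66 to -1.09 and adjusted p from 0.00469 to 0.186. Without MDA-MB-453 TWEAK replicate 2, the library that stands apart in that line, it was -1.32 (adjusted p = 0.127 in edgeR). For RELB the same difference was 1.30 (SE 0.214, adjusted p = 0.00158 in edgeR), with values from 1.21 to 1.44 and adjusted p of at most 0.0113 over its 20 alternatives. RELB stood at 1.26 ± 0.0521 CPM in untreated MDA-MB-453 and at 17.0 ± 2.04 CPM in untreated SKBR3 (SD, n = 3). For KRT19, a keratin of the epithelial list, the difference was -0.35 (SE 0.102, adjusted p = 0.0939 in edgeR), and 11 of 20 alternatives did not pass the threshold, with values from -0.41 to -0.22 and adjusted p from 9.02e-05 to 0.226; without MDA-MB-453 TWEAK replicate 2 it was -0.32 (adjusted p = 0.184), and without SKBR3 TWEAK replicate 2 it was -0.22 (adjusted p = 0.0356). No sample of a group was tested as an outlier, since the groups hold 3 samples.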

How the results depend on the processing

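The call of C1R in SKBR3, the absence of calls in MDA-MB-453 and the absence of member interactions held under every alternative run, except that 1 to 2 members were called in SKBR3 with single libraries left out (2, C1R and CFD, without TWEAK replicate 2). Of the listed genes, 2 were called in MDA-MB-453, but 1 with at least 10 counts in every library, 1 with all 12 libraries in one fit and 1 to 3 with single libraries left out; CLU lost its call under 4 alternatives, and gained it in SKBR3 under 8. Members called between the untreated lines numbered 4 to 7. Of the single genes under the alternatives, 780 values kept direction and side of the threshold, 41 lost a call, 14 gained one and 26 changed sign; the cause was not tested. With GC content and gene length corrected, and with that and the replicate block, CD46 in SKBR3 was 0.0320 and 0.0321, C8G in MDA-MB-453 -0.00067 and -0.0079, the CD55 interaction -0.0268 and -0.0280, and CD46 between untreated lines -0.0280 and -0.0031. With single libraries left out, values ran from -0.701 to 0.0710 for C3 and -0.116 to 0.0332 for CD46 in SKBR3, from -0.0967 to 0.117 for C8G in MDA-MB-453, from -0.346 to 0.0842 for C1S between untreated lines, and for the interaction from -0.393 to 0.0697 for C1R, -0.165 to 0.230 for CFD, -0.0518 to 0.0643 for CD55 and -0.0523 to 0.00010 for CD59.

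Same-numbered replicates correlated with r of 0.114, -0.0966 and -0.160 (SKBR3) and 0.0868, 0.0839 and 0.0250 (MDA-MB-453), so the numbers were not read as pairing. In MDA-MB-453 every sample correlated best with its own number, as a hint from the data. The paper states that cell-line experiments were repeated on different days, but the labels tie no replicate number to a day. The replicate block left SKBR3 with 1 member call and MDA-MB-453 with 0, and gave 1211 and 894 calls over all genes in place of 1633 and 223. Calls over all genes also moved by over 1.5 times in SKBR3 to 2695 (GC and length correction), 2575 (all 12 libraries), 978 and 926 (without untreated replicates 1 and 2) and 2780 (without TWEAK replicate 2), and in MDA-MB-453 to 480 (no filter), 1055 (block and correction), 144 (all 12 libraries), 131, 131 and 143 (without untreated replicates 2 and 3 and TWEAK replicate 3) and 2101 (without TWEAK replicate 2). For the interaction, 579 calls became 972 (GC and length correction), 877 (block and correction) and 1150 (without SKBR3 TWEAK replicate 2). C3, CFB and C4B had at most 22 counts in any library.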

Other observations

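TNFRSF12A, the receptor gene, stood at 66.3 ± 5.80 CPM in untreated and 85.6 ± 8.75 CPM in TWEAK-treated SKBR3 (SD, n = 3; log2 fold change 0.36, adjusted p = 0.0322 in edgeR), and at 52.1 ± 0.810 and 58.6 ± 2.79 CPM in MDA-MB-453 (0.17, adjusted p = 0.129). The MDA-MB-453 change was called with no filter on low counts (adjusted p = 0.0568), with the replicate block (0.0200), with the block together with GC and length corrected (0.0354) and without TWEAK replicate 2 (0.00849). The SKBR3 call was lost without untreated replicate 1 (adjusted p = 0.170) and without untreated replicate 2 (adjusted p = 0.144).

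Between the untreated lines, some listed genes passed the filter on low counts through 1 line alone, and 2 of them, chosen after their values were seen, are given here. C5, the component cleaved to start the membrane attack complex, held 0.0718, 0.248 and 0.206 CPM in untreated SKBR3 and 10.3, 9.25 and 10.0 CPM in untreated MDA-MB-453. It passed through MDA-MB-453, with 2 to 6 counts in untreated SKBR3. COLEC10, a collectin that recognises sugars for the lectin pathway, held 18.5, 18.9 and 19.2 CPM in untreated SKBR3 and 3, 2 and 1 counts in untreated MDA-MB-453. The lines differ in 84.2% of all genes tested.

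The 3 genes whose log2 CPM over the 12 libraries was most like that of C3 were ENSG00000260196 (Pearson r = 0.949), ACTG2 (0.941) and DDT (0.938). The libraries share line and treatment, and C3 rests on 3 to 22 counts, so this is a description.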
